A study of Mus musculus with 20 samples.

Results

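Chemokines are small secreted proteins that direct the movement of leukocytes, and this account follows them and their receptors through aged mouse intervertebral disc. The members are all genes in the deposited expression table whose symbol is Ccl, Cxcl, Ccr, Cxcr or Ackr followed by a number, together with Cx3cl1 and Cx3cr1. They are 54 of 51789 genes, 33 ligands and 21 receptors. The tissues compared were the soft central nucleus pulposus (NP) and the fibrous annulus fibrosus (AF) that encloses it, both dissected from BL6 mice at 24 months of age. The animals received intraperitoneal injections each week for 6 months from the age of 18 months, either of DMSO alone (vehicle) or of MDL-800 in the same amount of DMSO, so DMSO is common to all groups. MDL-800 is a small molecule used as an activator of SIRT6, a sirtuin that removes acyl groups from histones. The 4 groups of 5 libraries are NP vehicle (libraries 1, 2, 3, 5 and 6), NP MDL-800 (libraries 15, 18, 19, 20 and 22), AF vehicle (libraries 8, 9, 10, 12 and 13) and AF MDL-800 (libraries 25, 27, 28, 29 and 30). Values given for a group below follow this order of libraries. The labels do not say whether an NP and an AF library share a mouse, or that the libraries of a group come from separate animals, so p-values measure the spread between these libraries.

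Chemokines are named by the spacing of their first cysteines (CC, CXC or CX3C) and bind G-protein-coupled receptors on the cells they attract. Inflammatory chemokines are induced by cytokines and recruit neutrophils, monocytes and T cells, whereas homeostatic ones, such as Cxcl12, are made steadily by stroma and hold or guide cells. Atypical receptors (Ackr) bind chemokines and take them up without G-protein signalling. The healthy nucleus pulposus has no blood vessels, and chemokine production is known as a feature of disc degeneration.

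Levels are given as scaled FPKM, the deposited values per kilobase of transcript and mapped fragments divided by a factor for each library (0.933 to 1.062), so levels can be compared between genes. Differences are on the scale log2(scaled FPKM + 1), which understates the change of low genes. Estimated depth ran from 12.9 to 22.0 M reads (megareads), and 1 read on a transcript of 1000 nucleotides was worth between 0.0548 and 0.0969 FPKM. Of the NP markers Krt8, Krt18, Krt19, T, Car3, Cd24a and Shh, all 7 tested were higher in NP vehicle than in AF vehicle libraries, while Noto was below the filter. Of the 6 AF markers Scx, Tnmd, Mkx, Thbs4, Col1a1 and Fmod, 5 were lower in NP vehicle. The exception, Fmod, was at 742 to 1509 in NP vehicle and 526.5 to 845 in AF vehicle. Under MDL-800, 6 of 7 NP markers were higher in NP (all but Shh) and 4 of 6 AF markers were lower. Blood, vessel, bone and muscle markers were present in AF: summed macrophage markers ranged from 1382 to 2607 in AF vehicle and from 68.5 to 387 in NP vehicle libraries, and summed neutrophil markers started at 7221 in AF vehicle and reached at most 3090 in NP vehicle. Lyz2 made up most of the macrophage sum in AF vehicle, at 1036 to 2190. Other macrophage markers differed by unlike amounts between NP and AF vehicle. Csf1r was at 21.5 to 31.0 and 42.3 to 63.8, and Adgre1 at 0.248 to 2.82 and 8.72 to 22.0. Some libraries stand apart. AF vehicle library 9 has summed NP markers of 15090, against 2491 to 7106 in the rest of its group. NP vehicle library 3 has summed muscle markers of 1050, against 10.2 to 110 in the rest of its group. AF vehicle library 12 has the highest values of several members. NP libraries 1, 6, 18 and 22 have the highest neutrophil markers of their tissue, and NP MDL-800 library 18 is far above its group for 3 members.

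AF held more transcript of nearly the whole chemokine system than NP. The 33 ligands summed to 55.0 ± 24.2 scaled FPKM (SD, n = 5) in NP vehicle and to 785 ± 188 in AF vehicle. With MDL-800 the NP sum was 47.1 ± 26.4 and the AF sum 666 ± 120.0. Receptors summed to 31.9 ± 17.3 in NP vehicle, 31.9 ± 14.7 in NP MDL-800, 269 ± 68.2 in AF vehicle and 257 ± 69.2 in AF MDL-800. The makeup differed less than the amount. Cxcl12, the homeostatic chemokine that retains haematopoietic cells through Cxcr4, made up 51.7% of summed ligand in NP vehicle and 39.6% in AF vehicle. Ccl6 came second in both, with 13.7% and 13.2%. The third was Ccl25 in NP (9.14%) and Cxcl14 in AF (10.9%). Among receptors the scavenger Ackr3 led in NP vehicle with 39.7% of the sum and Cxcr4 in AF vehicle with 28.4%. A group mean of 1 scaled FPKM or more was reached by 12 members in each NP group, 40 in AF vehicle and 36 in AF MDL-800.

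**Figure D1:**
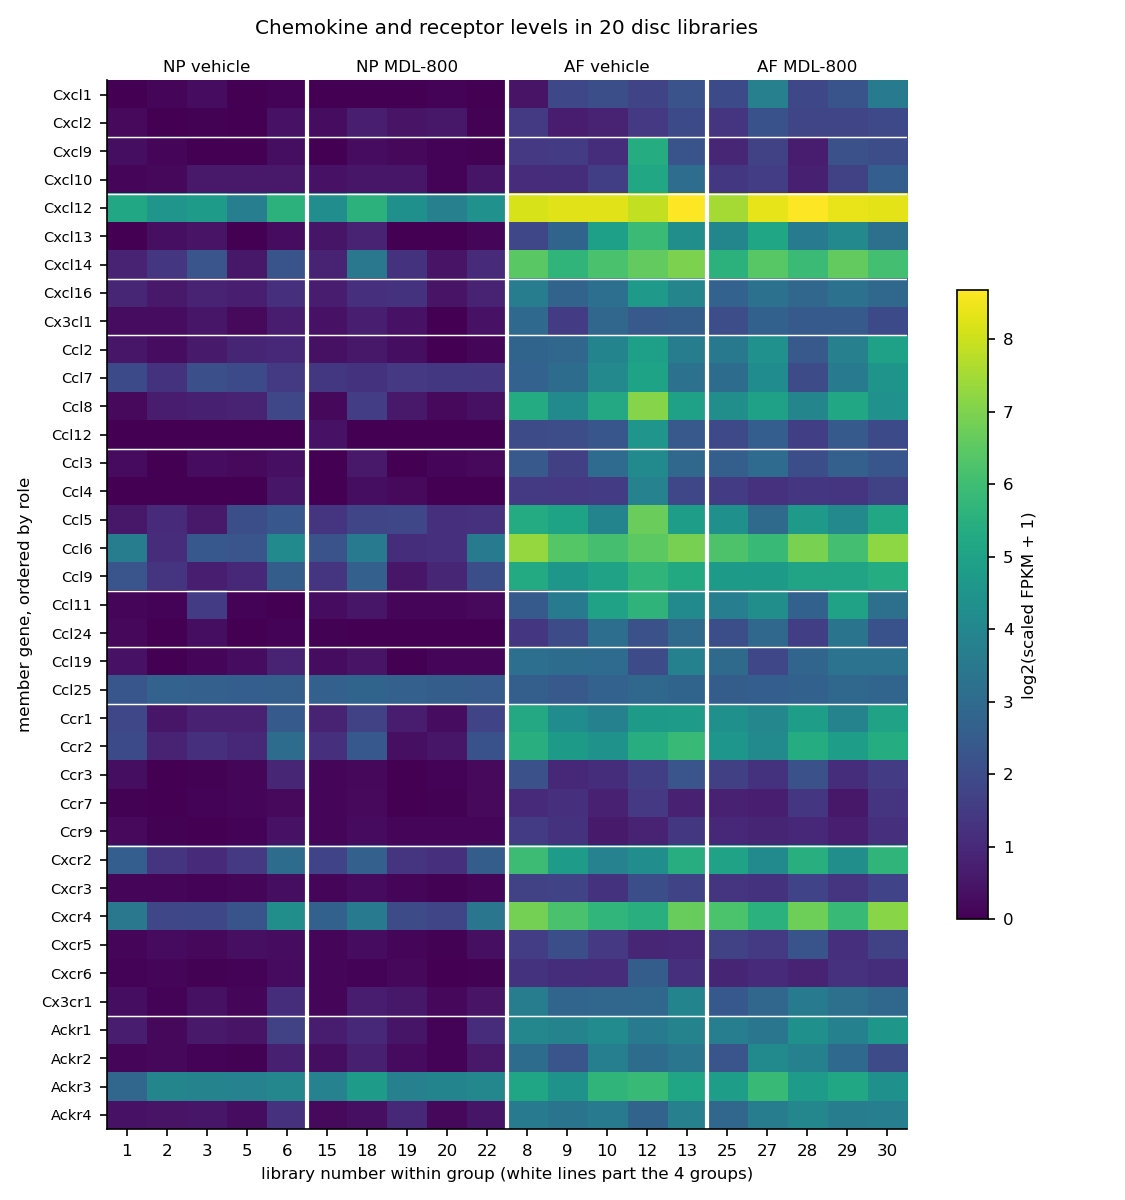
Level of 37 of the 38 members that passed the filter on low values (rows ordered by role, white lines between roles) in each of the 20 libraries (columns, 5 per group), as log2(scaled FPKM + 1) by colour. Cxcl12 is the brightest row in all AF libraries, Ackr3 and Ccl25 stay visible across NP, and AF vehicle library 12 shows bright cells for Cxcl9 and Cxcl10.

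The first question is how the members differ between NP and AF. In all 54 members, the highest of the 10 NP libraries lay below the lowest of the 10 AF libraries for 35, against 12.9% of all genes above 0 in any library. For testing, a gene had to reach 1 FPKM in 5 or more of the 20 libraries, which 38 members did. A member low in NP could do so only through AF, so the count over these 38 depends on the filter and is given as a description. In vehicle tissue, 37 of the 38 were lower in NP and none was higher (limma, adjusted p under 0.05), where 33.9% of all genes tested were lower and 21.8% higher. These 37 had no overlap between their 5 NP and 5 AF libraries (25.9% of all genes, in this direction). Under MDL-800, 37 were again lower and none higher, where 37.2% of all genes were lower and 25.6% higher, and 36 did not overlap (30.5% of all genes). The exception in both was Ccl25. A subset that does not depend on AF is the 11 members that reached 1 FPKM in 5 or more NP libraries. They are Ackr3, Ccl25, Ccl5, Ccl6, Ccl7, Ccl9, Ccr2, Cxcl12, Cxcl14, Cxcr2 and Cxcr4. Of these, 10 were lower in NP in vehicle tissue (25.4% of all genes chosen the same way) and 10 under MDL-800 (29.0%). Without any filter, 42 of 53 members tested were lower in vehicle tissue and none was higher (20.7% and 12.0% of all genes), and under MDL-800 44 were lower and 1 higher (23.2% and 14.3%). In bulk tissue fewer cells of a type and less RNA per cell cannot be told apart.

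Markers of other cells moved with this difference. In vehicle tissue, 8 of 8 macrophage and monocyte, 8 of 8 neutrophil, 6 of 6 T and NK cell, 6 of 6 B and plasma cell, 6 of 6 endothelial, 6 of 6 red cell, 6 of 6 bone, 5 of 6 marrow stroma and 6 of 6 skeletal muscle markers were lower in NP. Summed endothelial markers were 1.56 to 4.64 in NP vehicle and 42.6 to 93.7 in AF vehicle, and summed T and NK cell markers were 1.48 to 16.1 and 23.4 to 176. No marker was at 0 in all 5 libraries of any group. Their part in the difference was not tested.

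**Figure D2:**
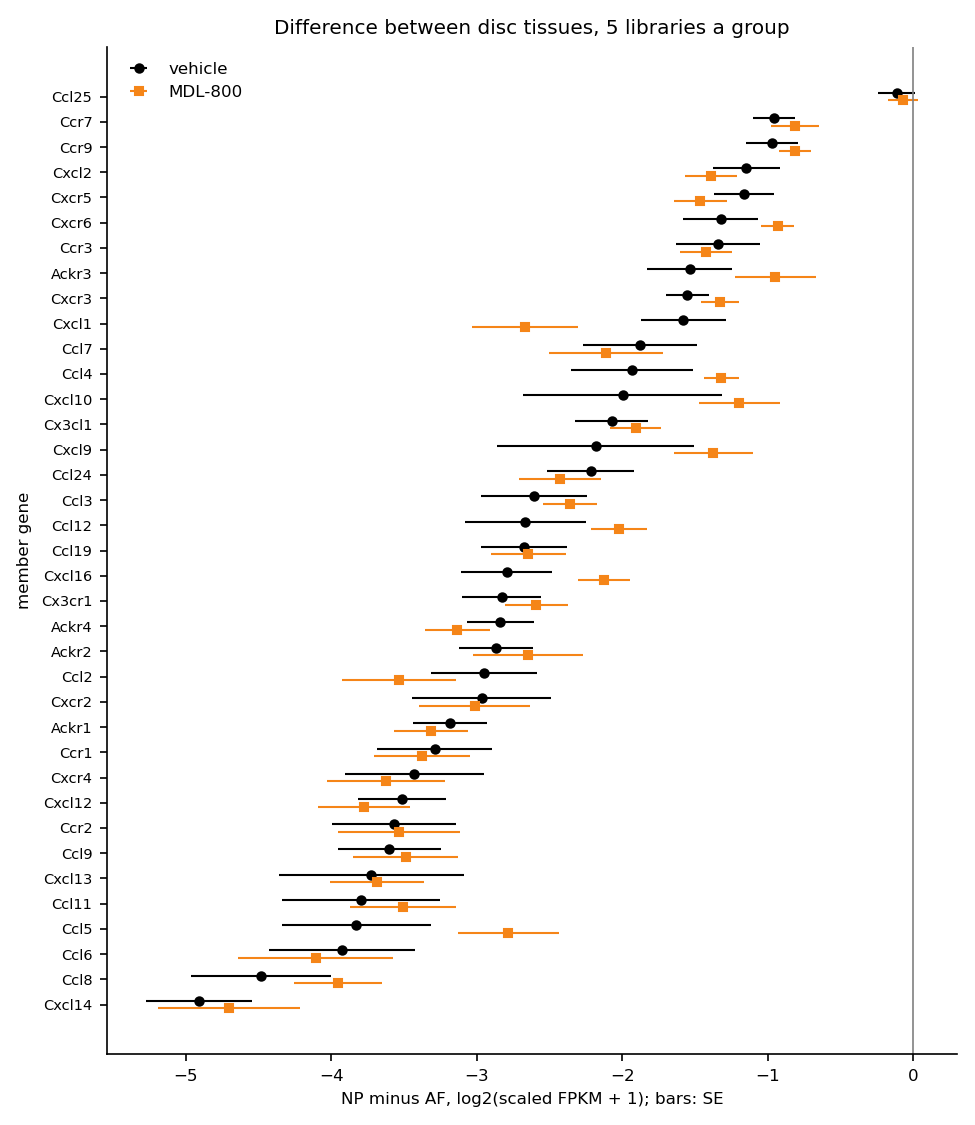
Difference between tissues for 37 of the 38 members tested, NP minus AF on log2(scaled FPKM + 1), with bars for the standard error, for vehicle (black circles) and MDL-800 (orange squares), 5 libraries a group. All points lie left of 0 and only Ccl25 reaches it, at -0.11 in vehicle and -0.07 under MDL-800.

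Among the homeostatic CXC chemokines, Cxcl12 and Cxcl14 were the ligands with the first and the third highest mean in AF vehicle. Cxcl12 was at 34.9, 21.8, 26.4, 12.0 and 47.1 in NP vehicle and at 285, 312, 314, 237 and 408 in AF vehicle. With MDL-800 the NP values were 18.1, 46.7, 19.4, 12.7 and 20.1 and the AF values 179.8, 329, 408, 330.3 and 316. Every NP library lay below every AF library, with a difference of -3.52 (SE 0.30, adjusted p = 1.0e-05) in vehicle and -3.77 (SE 0.31, adjusted p = 4.0e-06) under MDL-800. Within NP, libraries 6 and 18 were the highest. Cxcl14, a chemokine of epithelium and stroma, was at 0.793, 1.58, 3.90, 0.483 and 3.74 in NP vehicle and 0.816, 10.1, 1.40, 0.370 and 1.07 in NP MDL-800. AF values were 86.8, 50.1, 71.1, 96.4 and 124 with vehicle and 47.2, 85.7, 59.6, 95.1 and 66.3 with MDL-800. Its difference was -4.91 (SE 0.36, adjusted p = 5.6e-06) in vehicle and -4.70 (SE 0.49, adjusted p = 1.6e-05) under MDL-800, again with no overlap. Cxcl13, which attracts B cells, was at or below 0.831 in all NP libraries and passed the filter only through AF. In AF it was at 2.62, 5.97, 28.5, 58.8 and 18.5 with vehicle and 14.8, 32.9, 10.9, 16.1 and 8.15 with MDL-800. The AF range was wide, yet its lowest value was above all of NP, with a difference of -3.73 (SE 0.64, adjusted p = 5.5e-04) in vehicle and -3.69 (SE 0.32, adjusted p = 5.3e-06) under MDL-800.

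The monocyte-attracting CC chemokines Ccl2, Ccl7 and Ccl12 lie together with Ccl8 on chromosome 11. All 4 were lower in NP in both comparisons, where 33.9% of all genes were in vehicle tissue and 37.2% under MDL-800. Ccl2, Ccl12 and Ccl8 passed the filter only through AF. Ccl8, which in mouse acts on Ccr8, was at 0.161, 0.619, 0.678, 0.769 and 2.63 in NP vehicle and 0.149, 1.96, 0.505, 0.159 and 0.319 in NP MDL-800. The AF libraries held 39.0, 16.6, 37.0, 135 and 30.1 with vehicle and 18.6, 30.2, 14.4, 34.7 and 19.8 with MDL-800. Library 12 was the highest by far, and the difference was -4.48 (SE 0.48, adjusted p = 3.4e-05) with all vehicle libraries and -4.05 (adjusted p = 2.0e-05) without library 12; under MDL-800 it was -3.95 (SE 0.30, adjusted p = 2.6e-06). Ccl2, the main ligand of the monocyte receptor Ccr2, was at 0.429, 0.217, 0.536, 0.878 and 1.01 in NP vehicle and 0.319, 0.463, 0.252, 0 and 0.0824 in NP MDL-800. In AF it was at 5.89, 6.25, 13.9, 28.6 and 11.5 with vehicle and 10.4, 20.0, 4.35, 12.7 and 30.1 with MDL-800. Here AF libraries 12 and 30 were the highest and no NP library reached the lowest AF one, with a difference of -2.95 (SE 0.36, adjusted p = 7.1e-05) in vehicle and -3.53 (SE 0.39, adjusted p = 2.3e-05) under MDL-800. Ccl7 averaged 2.46 ± 0.814 (SD, n = 5) in NP vehicle and 13.9 ± 10.8 in AF vehicle, and its ranges under MDL-800 were 1.40 to 1.70 in NP and 3.08 to 21.6 in AF. Ccl12 was listed at 0 in all 5 NP vehicle libraries and in 4 of 5 NP MDL-800 libraries, and averaged 7.28 ± 8.15 in AF vehicle and 3.45 ± 1.27 in AF MDL-800. Without AF vehicle library 12 the vehicle mean of Ccl12 was 3.64 ± 0.638 (SD, n = 4), with a tissue difference of -2.20 (adjusted p = 1.2e-05).

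The other CC chemokines that attract monocytes, macrophages and effector T cells were lower in NP for 5 of 5 members in both comparisons, where 33.9% of all genes were in vehicle tissue and 37.2% under MDL-800; Ccl3 and Ccl4 passed the filter only through AF. Ccl6, a mouse chemokine made by myeloid cells, was at 11.5, 1.15, 4.24, 3.92 and 16.7 in NP vehicle and 3.70, 11.2, 1.19, 1.27 and 11.3 in NP MDL-800. Levels in AF were 157, 83.2, 68.1, 89.7 and 118 with vehicle and 74.9, 56.8, 121, 66.8 and 146 with MDL-800. Its NP libraries fell into high values (libraries 1, 6, 18 and 22) and low ones, all below AF, and the difference was -3.93 (SE 0.50, adjusted p = 9.2e-05) in vehicle and -4.11 (SE 0.53, adjusted p = 6.7e-05) under MDL-800. Ccl9, its neighbour and close relative, was at 3.84, 1.54, 0.668, 0.967 and 4.88 in NP vehicle and 38.6, 23.4, 30.9, 50.7 and 37.8 in AF vehicle. With MDL-800 the NP values were 1.46, 5.37, 0.424, 0.921 and 3.25 and the AF values 25.6, 25.6, 32.3, 32.5 and 40.1. The same NP libraries were high, without reaching AF, and the difference was -3.60 (SE 0.35, adjusted p = 2.0e-05) in vehicle and -3.49 (SE 0.36, adjusted p = 1.5e-05) under MDL-800. Ccl5, a product of T and NK cells and other leukocytes, was at 0.472, 1.10, 0.516, 3.19 and 4.16 in NP vehicle and 1.44, 2.51, 2.58, 1.30 and 1.36 in NP MDL-800. In AF it was at 39.3, 31.6, 14.1, 102 and 27.2 with vehicle and 19.7, 6.92, 24.7, 16.1 and 35.0 with MDL-800. The highest NP value, in library 6, lay below the lowest AF value, in library 27, and the difference was -3.83 (SE 0.51, adjusted p = 1.2e-04) in vehicle and -2.78 (SE 0.35, adjusted p = 5.4e-05) under MDL-800. Ccl3 averaged 0.174 ± 0.105 in NP vehicle against 7.34 ± 5.42 in AF vehicle (SD, n = 5). Ccl4 averaged 0.0889 ± 0.199 against 4.32 ± 5.14, and the AF mean of Ccl4 was 2.02 ± 0.412 (SD, n = 4) without library 12. At this depth the NP values of both rest on few reads.

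Among the eosinophil chemokines that act on Ccr3, Ccl11 was at 0.118, 0.0722, 1.86, 0.0592 and 0 in NP vehicle and 0.219, 0.452, 0.0908, 0.116 and 0.175 in NP MDL-800, with library 3 the only one above 1. Its AF values were 4.45, 11.1, 30.7, 49.2 and 16.8 with vehicle and 12.2, 18.3, 5.49, 31.0 and 8.13 with MDL-800 and did not overlap NP. The difference was -3.80 (SE 0.55, adjusted p = 1.9e-04) in vehicle and -3.51 (SE 0.36, adjusted p = 1.6e-05) under MDL-800. Ccl24 averaged 0.0863 ± 0.104 in NP vehicle and 4.55 ± 2.65 in AF vehicle. Both eosinophil chemokines passed the filter only through AF. The 2 transmembrane chemokines, which also serve as adhesion molecules, were both lower in NP: Cxcl16 averaged 0.824 ± 0.279 against 13.0 ± 7.56, and Cx3cl1 0.322 ± 0.172 against 4.84 ± 1.94. The neutrophil-attracting chemokines Cxcl1 and Cxcl2 were both lower in NP. Like the 2 transmembrane chemokines, they passed the filter only through AF. Over all genes 33.9% were lower in vehicle tissue and 37.2% under MDL-800. Cxcl1 averaged 0.0748 ± 0.0910 in NP vehicle and 2.47 ± 1.28 in AF vehicle, and Cxcl2 0.110 ± 0.150 and 1.57 ± 0.911. The Cxcr3 ligands Cxcl9 and Cxcl10, induced by interferon, averaged 0.123 ± 0.120 and 0.361 ± 0.210 in NP vehicle, against 9.72 ± 17.0 and 9.46 ± 14.7 in AF vehicle. Both passed the filter only through AF, and their AF means rest on library 12. With it the differences were -2.18 (SE 0.68, adjusted p = 0.0177) for Cxcl9 and -1.998 (SE 0.68, adjusted p = 0.0277) for Cxcl10, and without it they were -1.43 (adjusted p = 3.3e-04) and -1.31 (adjusted p = 0.0134). The call for Cxcl10 was lost, with a difference nearly as large, without NP vehicle library 1 (-1.93, adjusted p = 0.0559), NP vehicle library 2 (-1.94, adjusted p = 0.0562) or AF vehicle library 13 (-1.83, adjusted p = 0.0643).

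Of the chemokines that guide lymphocytes in lymphoid tissue, gut and skin, Ccl19, a ligand of Ccr7, averaged 0.288 ± 0.311 in NP vehicle and 7.67 ± 3.58 in AF vehicle and was lower in NP. Ccl19 passed the filter only through AF. Ccl25, known as the thymus and gut ligand of Ccr9, was the member whose tissue difference was smaller than the spread. It was at 4.01, 5.65, 5.29, 5.02 and 5.18 in NP vehicle and at 5.12, 4.37, 5.67, 6.57 and 5.98 in AF vehicle. With MDL-800 the NP values were 5.36, 6.01, 5.38, 4.90 and 4.65 and the AF values 4.89, 5.03, 5.40, 6.57 and 6.03. All 20 values lay between 4.01 and 6.57 and the groups overlapped, with a difference of -0.11 (SE 0.13, adjusted p = 0.471) in vehicle and -0.07 (SE 0.10, adjusted p = 0.577) under MDL-800. Its sign depends on the scaling: with quantile normalization, which raised the median of all genes from -0.08 to 0.19, Ccl25 was higher in NP by 0.31 in vehicle (adjusted p = 0.051) and 0.35 under MDL-800 (adjusted p = 0.0096). Its receptor Ccr9 averaged 0.125 ± 0.135 in NP vehicle and 1.25 ± 0.544 in AF vehicle. By mean level Ccl25 was the third of the ligands in NP vehicle.

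Of the receptors that passed the filter, most of them through AF, 6 of 6 CC receptors, 6 of 6 CXC and CX3C receptors and 4 of 4 atypical receptors were lower in NP in both comparisons, where 33.9% of all genes were in vehicle tissue and 37.2% under MDL-800. Cxcr4, the Cxcl12 receptor of most leukocytes and blood progenitors, was at 9.99, 2.62, 2.71, 3.80 and 18.6 in NP vehicle and 5.42, 10.7, 2.99, 2.49 and 9.52 in NP MDL-800. In AF the values were 116, 71.3, 51.7, 43.7 and 99.2 with vehicle and 74.2, 45.1, 107, 57.9 and 141 with MDL-800. No NP library reached AF and libraries 1, 6, 18 and 22 were the highest of NP, with a difference of -3.43 (SE 0.48, adjusted p = 1.5e-04) in vehicle and -3.62 (SE 0.40, adjusted p = 2.5e-05) under MDL-800. Ccr2, the receptor of inflammatory monocytes, was at 2.89, 0.805, 1.25, 0.996 and 7.37 in NP vehicle and 1.22, 4.28, 0.283, 0.434 and 3.52 in NP MDL-800. In AF it was at 43.2, 25.5, 20.6, 41.1 and 57.6 with vehicle and 22.7, 16.8, 39.9, 27.9 and 40.0 with MDL-800. The same 4 NP libraries were the highest, without reaching AF, with a difference of -3.57 (SE 0.43, adjusted p = 6.2e-05) in vehicle and -3.54 (SE 0.42, adjusted p = 3.9e-05) under MDL-800.

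Ackr3, which takes up Cxcl12, was the receptor with the smallest difference among those above 10 scaled FPKM in AF. It was at 6.32, 14.6, 13.9, 13.5 and 15.1 in NP vehicle and 34.5, 21.1, 50.3, 57.6 and 33.8 in AF vehicle, with no overlap. With MDL-800 the NP values were 13.2, 26.4, 12.7, 14.0 and 15.2 and the AF values 27.9, 58.2, 26.8, 34.5 and 19.6, where NP library 18 exceeded AF library 30. The difference was -1.54 (SE 0.29, adjusted p = 0.00104) in vehicle and -0.95 (SE 0.28, adjusted p = 0.0117) under MDL-800, where it was -1.13 (adjusted p = 0.00395) without library 18. In NP vehicle, Ackr3 averaged 12.7 ± 3.61 and Cxcr4 7.54 ± 6.88, whereas in AF vehicle Cxcr4 averaged 76.5 ± 30.9 and Ackr3 39.5 ± 14.5. Ackr3 was above Cxcr4 in 8 of the 10 NP libraries (all but 1 and 6) and in 2 of the 10 AF libraries (12 and 27).

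Of the other receptors, Cxcr2, the neutrophil receptor for Cxcl1 and Cxcl2, averaged 3.33 ± 2.76 in NP vehicle and 32.0 ± 19.1 in AF vehicle. Ccr1 averaged 1.79 ± 1.73 and 24.1 ± 9.27. Cx3cr1, of monocytes and macrophages, averaged 0.377 ± 0.458 and 8.93 ± 3.73. The atypical receptors of venules, lymphatics and stroma were also lower in NP, Ackr1 at 0.764 ± 0.812 against 14.1 ± 2.35, Ackr2 at 0.208 ± 0.278 against 8.14 ± 3.16 and Ackr4 at 0.538 ± 0.463 against 9.96 ± 2.65. The lymphocyte and eosinophil receptors Cxcr3, Ccr3, Cxcr6, Cxcr5 and Ccr7 averaged between 1.12 (Ccr7) and 2.33 (Cxcr3) in AF vehicle and between 0.0738 (Ccr7) and 0.263 (Ccr3) in NP vehicle.

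Below the filter were Ccl1, Ccl17, Ccl20, Ccl22, Ccl26, Ccl28, Ccr4, Ccr6, Ccr8, Ccr10, Cxcl3, Cxcl5, Cxcl11, Cxcl15, Cxcl17 and Cxcr1, none of which exceeded 2.51 scaled FPKM in any library. Ccl26 was listed at 0 in all 20. Ccl22 and Ccl17, ligands of Ccr4, were the only ones with a group mean of 1 or more, 1.29 ± 1.05 and 1.08 ± 0.630 in AF vehicle. Ccl28 and Ccr10, a ligand and receptor of mucosal and skin lymphocytes, did not follow the rest. Ccl28 averaged 0.425 ± 0.125 in NP vehicle and 0.342 ± 0.202 in AF vehicle. Ccr10 averaged 0.305 ± 0.0635 in NP MDL-800 and 0.170 ± 0.0587 in AF MDL-800, and without a filter it was the 1 member higher in NP under MDL-800, by 0.16 (adjusted p = 0.020), while in vehicle the difference was 0.08 (adjusted p = 0.44). At this depth such values rest on few reads.

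The second question is what MDL-800 does to these genes. In NP no member was called (limma) and none had groups of 5 that stood apart, where 0.232% of all genes were higher and 0.0183% lower with MDL-800, and 3.5% and 1.0% stood apart as higher and lower. At an unadjusted p under 0.05 there were 2 members, Ccl2 and Ccl7, which is 2 of 38 against 14.1% of all genes. Of the 38, 26 had a negative and 12 a positive difference, with a median of -0.04 beside -0.03 over all genes. Ccl2 values, given above, reached 0.463 with MDL-800 and 1.01 with vehicle, and the groups overlapped, with a difference of -0.39 (SE 0.16, adjusted p = 0.292). Ccl7 was at 2.89, 1.41, 3.35, 2.85 and 1.81 with vehicle and at 1.62, 1.40, 1.70, 1.63 and 1.61 with MDL-800. The MDL-800 values were close to each other, and vehicle library 2 lay among them, with a difference of -0.39 (SE 0.16, adjusted p = 0.313). In the other direction, Cxcl2 was at 0.172, 0, 0.0303, 0 and 0.346 with vehicle and 0.209, 0.673, 0.384, 0.476 and 0.0309 with MDL-800, overlapping at the level of a few reads, with a difference of 0.28 (SE 0.14, adjusted p = 0.415). Ackr3 had a difference of 0.34 (SE 0.25, adjusted p = 0.583), and 0.16 (adjusted p = 0.802) without library 18. The difference of Ccl12, 0.08 (SE 0.09, adjusted p = 0.743), came from 1 library, since the other 9 were listed at 0.

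**Figure D3:**
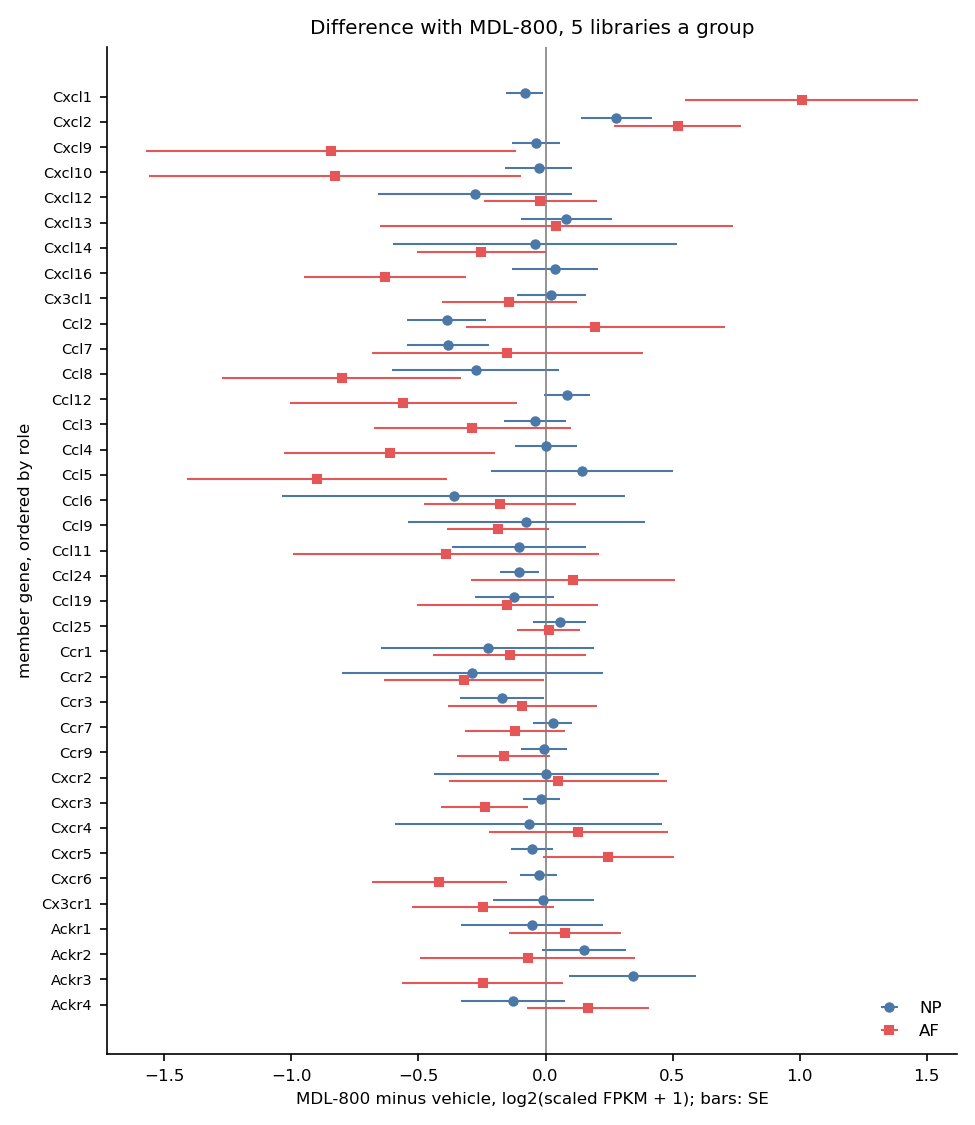
Difference with treatment for 37 of the 38 members tested, MDL-800 minus vehicle on log2(scaled FPKM + 1), with bars for the standard error, in NP (blue circles) and AF (red squares), 5 libraries a group, ordered by role. The points lie between -0.90 (Ccl5 in AF) and 1.01 (Cxcl1 in AF), and no member passed the adjusted threshold in either tissue.

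In AF no member was called (limma), and none of all genes was (0.0% in each direction). The groups overlapped for every member, and stood apart for 0.128% of all genes as higher and 0.0977% as lower. At an unadjusted p under 0.05 there were 0 of 38 members and 1.65% of all genes. The differences were negative for 27 members and positive for 11, with a median of -0.16 beside 0.01 over all genes. Cxcl1 was at 0.366, 2.66, 3.21, 2.41 and 3.70 with vehicle and 2.88, 12.7, 2.71, 3.72 and 10.9 with MDL-800. Libraries 27 and 30 were high and the others overlapped vehicle, with a difference of 1.01 (SE 0.46, adjusted p = 1) and of 0.70 (adjusted p = 1) without vehicle library 8, the lowest. Cxcl2 was at 1.80, 0.637, 0.782, 1.74 and 2.89 with vehicle and 1.51, 3.55, 2.55, 2.48 and 2.74 with MDL-800, also overlapping, with a difference of 0.52 (SE 0.25, adjusted p = 1). Cxcr5, the B cell receptor for Cxcl13, had a difference of 0.25 (SE 0.26, adjusted p = 1) with AF vehicle library 12 and 0.13 (adjusted p = 1) without it. Cxcl16 was at 11.6, 5.75, 7.99, 25.1 and 14.6 with vehicle and 5.65, 8.70, 6.28, 8.71 and 6.62 with MDL-800. It had a difference of -0.63 (SE 0.32, adjusted p = 1) with library 12 and -0.37 (adjusted p = 1) without it. For Ccl5, whose values are given above, these were -0.90 (SE 0.51, adjusted p = 1) and -0.51 (adjusted p = 1).

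The contrast of the treatment effects, NP minus AF, tested over all 4 groups, passed the threshold for no member (limma), and for 0.0% of all genes. At an unadjusted p under 0.05 there was 1 member, Cxcl1, beside 3.73% of all genes. Its interaction was -1.09 (SE 0.49, adjusted p = 1). Next by p were Cxcl16 at 0.67 (SE 0.38, adjusted p = 1) and Ccl5 at 1.04 (SE 0.66, adjusted p = 1), which were 0.41 and 0.66 without AF vehicle library 12. Ackr3 was at 0.59. Cxcr5 was at -0.30, and at -0.18 without library 12. Ccl2 was at -0.58, at -0.90 without library 12 and at -0.38 without AF vehicle library 8.

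One AF library stood above the others for part of the members. In AF vehicle library 12, 12 of the 37 members shown were 3-fold or more above the median of the other 9 AF libraries, where 2.39% of all genes were, and 15 were the highest of the 10 (14.8% of all genes). The library was singled out after its values were seen, so these are descriptions with no test. Cxcl9 stood at 40.1 there and between 0.612 and 3.74 in the other 9, which is 21.2-fold above their median, and Cxcl10 at 35.3 against 0.691 to 7.59, 17.8-fold above. Ccl4 (7.54-fold), Ccl12 (7.00-fold), Ccl8 (4.49-fold), Ccl5 (4.16-fold), Cxcr6 (4.05-fold), Ccl11 (4.04-fold), Cxcl13 (3.97-fold), Ccl7 (3.67-fold), Cxcl16 (3.14-fold) and Ccl3 (3.14-fold) followed. By known role Cxcl9 and Cxcl10 attract T cells, Ccl7 and Ccl12 monocytes, Ccl11 eosinophils and Cxcl13 B cells. Ccl8 acts on Ccr8 in mouse, and Cxcr6 is a receptor of effector T cells. Without library 12 the tissue differences in vehicle were -3.44 (adjusted p = 1.4e-04) for Ccl5, -3.42 (adjusted p = 2.8e-04) for Ccl11, -3.24 (adjusted p = 6.0e-04) for Cxcl13 and -1.05 (adjusted p = 4.7e-05) for Cxcr6 (limma), and the count of members lower in NP was again 37. Cxcr3, the receptor of Cxcl9 and Cxcl10, was at 3.20 there, 1.43-fold above the median. The neutrophil chemokines and their receptor were not among them: Cxcl1 (0.749-fold), Cxcl2 (0.703-fold) and Cxcr2 (0.592-fold) were below the median, as were Cxcl12 (0.752-fold), Cxcr4 (0.590-fold), Ackr4 (0.513-fold), Cxcr5 (0.460-fold) and Ccl19 (0.407-fold). Of the T and NK cell markers, 6 of 6 were highest in library 12 and 5 were 3-fold or more above the median, and their sum was 176 against 23.4 to 91.1 in the other 9. Of skeletal muscle markers 4 of 6 were 3-fold or more above, of macrophage markers 0 of 8 and of neutrophil markers 0 of 8. Highest in library 12 were 4 of 6 muscle, 3 of 8 macrophage and 0 of 8 neutrophil markers, beside 14.8% of all genes. Their part in the pattern was not tested.

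**Figure D4:**
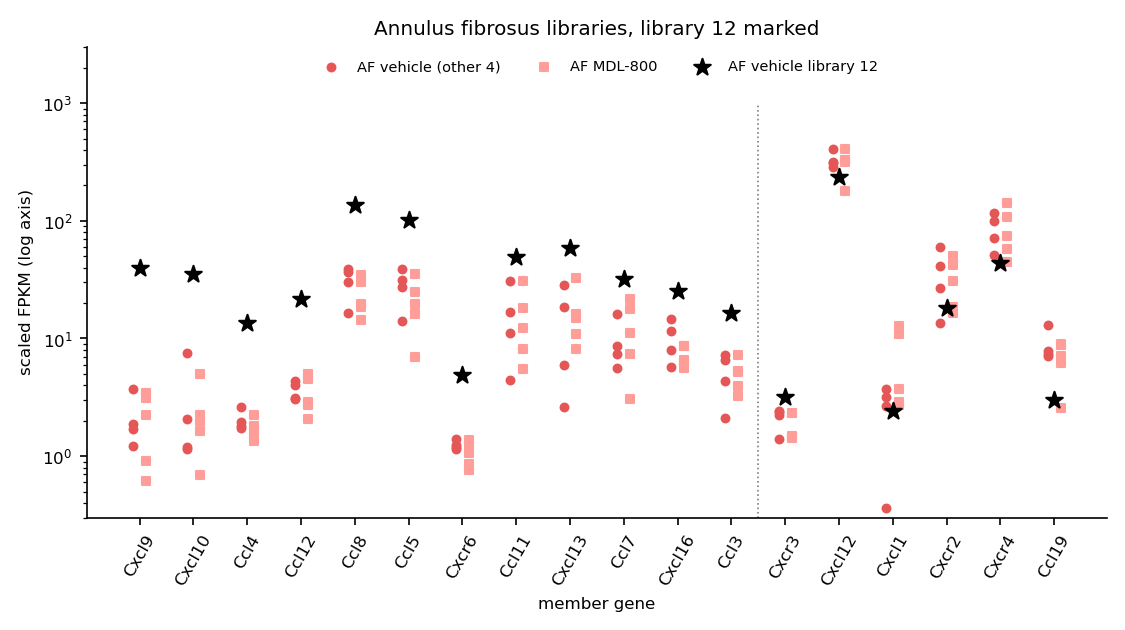
Level in scaled FPKM (log axis) of 18 members in the AF libraries, with AF vehicle library 12 as a black star, the other 4 AF vehicle libraries as circles and the 5 AF MDL-800 libraries as squares. Left of the dotted line the 12 members at 3-fold or more have the star above all other points, from Cxcl9 at 40.1 to Ccl3 at 16.3, and right of it Cxcr2 and Cxcr4 have the star low in the range.

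The promoters of the 2 members that stood out most are shown because the genes lie side by side on chromosome 5, in a cluster with Cxcl11 from 92321347 to 92365485, and were high in the same library. Each is the 250 bases before the RefSeq start on the minus strand of GRCm38.p6, at chr5:92328080-92328329 for Cxcl9 and chr5:92348890-92349139 for Cxcl10, and capitals mark letters that match a motif searched on both strands.
Cxcl9: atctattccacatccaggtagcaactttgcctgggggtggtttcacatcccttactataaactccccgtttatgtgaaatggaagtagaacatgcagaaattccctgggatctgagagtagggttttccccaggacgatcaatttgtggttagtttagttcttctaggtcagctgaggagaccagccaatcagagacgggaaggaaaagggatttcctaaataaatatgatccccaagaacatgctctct
Cxcl10: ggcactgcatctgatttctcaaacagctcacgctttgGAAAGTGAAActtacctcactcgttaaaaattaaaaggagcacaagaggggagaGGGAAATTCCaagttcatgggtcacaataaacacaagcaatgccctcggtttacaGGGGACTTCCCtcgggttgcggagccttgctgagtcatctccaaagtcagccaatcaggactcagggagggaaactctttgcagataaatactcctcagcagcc
The motifs were the core of the interferon-stimulated response element (GAAA repeated after a gap of 2 bases), the gamma-activated site TTCNNNGAA and the NF-kB consensus. The Cxcl10 window holds the first from 213 to 204 bases before the start and the NF-kB consensus at 159 to 150, 104 to 95 and 103 to 94 bases before it, the last 2 overlapping. In the Cxcl9 window none of the 3 was found. Of all 32851 promoters of this length, 2.98% hold the response element core, 7.02% the gamma-activated site and 7.25% the NF-kB consensus. RefSeq promoters were matched for 39 of the 54 members, with 41 promoters in all, of which 3, 3 and 11 hold these motifs (7.32%, 7.32% and 26.8%). A match is a description of letters in this window and was not related to the levels.

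Within NP, libraries 1 and 6 of vehicle and 18 and 22 of MDL-800 were above the other 6 NP libraries for 7 of the 38 members, Ccl6, Ccl9, Ccr1, Ccr2, Ccr3, Cxcr2 and Cxcr4, where 4.05% of all genes were. The libraries were singled out after their values were seen. Cxcr2 was at 4.99, 7.40, 5.27 and 4.90 in these libraries and between 1.07 and 2.36 in the others. Of the neutrophil markers, 8 of 8 showed the same split, with sums of 1599, 3090, 1626 and 1653 against 189.8 to 601, and so did 3 of 6 red cell, 2 of 8 macrophage, 1 of 6 T and NK cell, 1 of 6 B and plasma cell and 1 of 6 marrow stroma markers. None of the NP, AF, endothelial, bone or muscle markers did. Ackr3 and Ccl25 did not follow the split: Ackr3 was lowest in library 1 and highest in library 18, and Ccl25 was lowest in library 1 as well. The part of these cells in the levels was not tested.

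**Figure D5:**
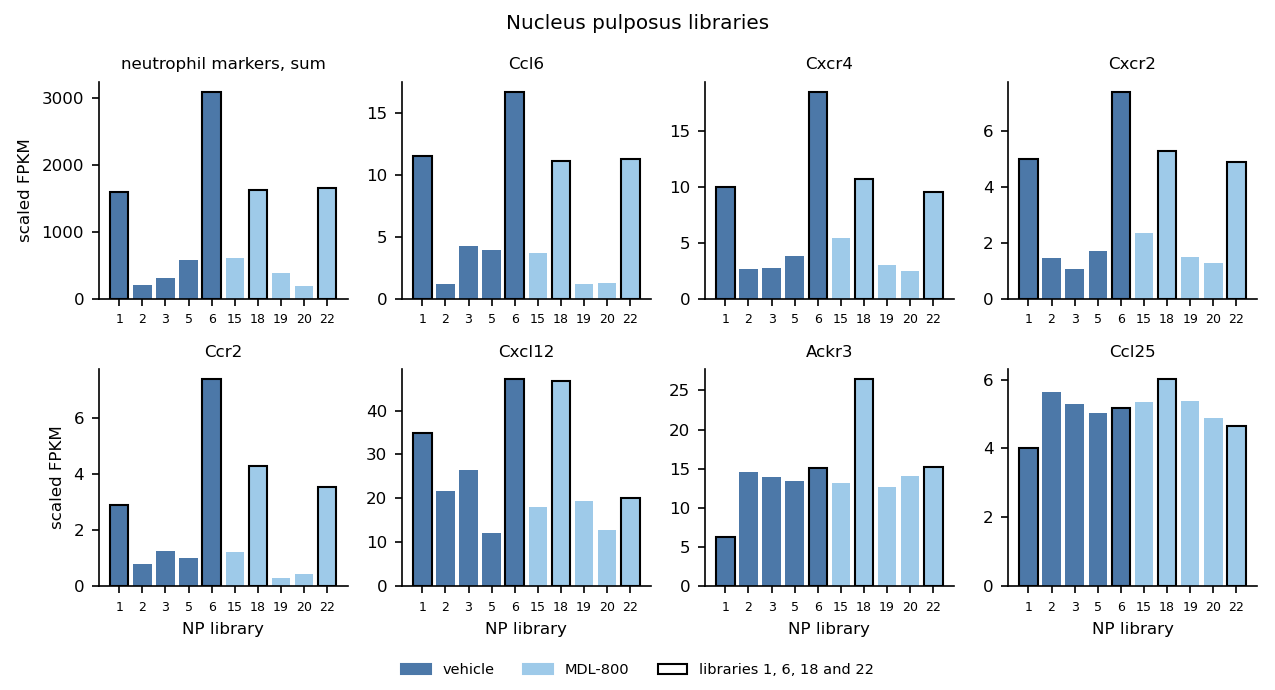
Level in scaled FPKM of summed neutrophil markers and of 7 members in the 10 NP libraries, one bar a library, vehicle in dark and MDL-800 in light blue, with libraries 1, 6, 18 and 22 outlined. In the upper row and for Ccr2 the outlined bars are the highest, while Ackr3 and Ccl25 show no such split.

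The wider pathway followed the members. Of 10 chemokines and receptors outside the symbol rule that are in the table, 6 were tested, and 5 of these were lower in NP in vehicle tissue and 5 under MDL-800, beside the 33.9% and 37.2% of all genes given above. They include Ccl21a, a lymphatic ligand of Ccr7, at -4.56 (SE 0.31, adjusted p = 4.1e-06) in vehicle, the platelet chemokine Pf4 at -3.92 (SE 0.48, adjusted p = 7.2e-05) and the receptor-like Ccrl2 at -1.95 (SE 0.13, adjusted p = 4.0e-06). Ccl21a has near-identical copies in mouse, and how reads were shared among them is not given in the sources used here. Of 27 genes of signal transduction below the receptors, 21 were lower and 2 higher in NP vehicle, and 20 and 1 under MDL-800. Over all genes 33.9% were lower and 21.8% higher in vehicle tissue, and 37.2% and 25.6% under MDL-800. The lower ones with the smallest p were Elmo1 at -2.17 (SE 0.21, adjusted p = 2.1e-05), Rgs1 at -2.12 (SE 0.21, adjusted p = 2.2e-05) and Vav1 at -3.14 (SE 0.34, adjusted p = 3.8e-05), which act in Rac activation and in the quenching of G-protein signals in leukocytes. The higher ones, named after their values were seen, were the G-protein subunits Gng2 and Gnb1, at 1.67 (SE 0.22, adjusted p = 1.1e-04) and 0.24 (SE 0.09, adjusted p = 0.0377). Of 10 enzymes and binding proteins that cut or hold chemokines, 8 were lower and 1 higher in NP vehicle, and 9 and 1 under MDL-800. The shares over all genes are those given for the signal transduction genes. Sdc1, a heparan sulfate carrier, was at -3.06 (SE 0.27, adjusted p = 1.3e-05), the sheddase Adam10 at -1.03 (SE 0.10, adjusted p = 2.0e-05) and the protease Mmp2 at -5.56 (SE 0.55, adjusted p = 2.2e-05). The one that was higher, Sdc4, was at 0.69 (SE 0.16, adjusted p = 0.00451). With MDL-800 against vehicle, none of the 43 genes of these lists passed the threshold in NP or in AF (limma), while 4 in NP (Ccl27a, Gnb1, Grk2 and Ppbp) and 1 in AF (Dpp4) had an unadjusted p under 0.05. Over all genes 14.1% had such a p in NP and 1.65% in AF. Under the 3 other scalings tried, between 19 and 21 of the signal transduction genes were lower in NP and between 1 and 3 were higher. Of the enzymes and binding proteins, between 7 and 9 were lower and 1 was higher under these scalings. Of the chemokines and receptors outside the symbol rule, 5 were lower throughout, and Ccl27a was called higher under MDL-800 with quantile normalization. Gnb1 was no longer called higher with FPKM as deposited in vehicle tissue.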

How the data were processed

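RNA was measured in 20 libraries, 5 in each of 4 groups. Per the labels' protocols, stranded total RNA libraries were made after ribosomal depletion (input 50 ng, 14 PCR cycles). The authors deposited FPKM values with 2 decimals; STAR 2.7.11b and mm10 are named in the submitters' processing notes, while the counting program, its strand setting and the annotation are not given in the sources used here. FPKM was divided by a median-ratio factor for each library, from 11308 genes. The 16383 genes that reached 1 FPKM in 5 or more libraries were tested with limma 3.58.1 (eBayes with trend) in R 4.3.3 on log2(value + 1), two-sided, with only the 2 groups compared in each fit and all 4 in the interaction. P-values were Benjamini-Hochberg adjusted over all genes tested, and a call is an adjusted p under 0.05.

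Depth was estimated from the steps of low FPKM values in 6647 genes of 400 to 1200 nucleotides with 1 exon; from 81.2% to 86.8% of values lay within 0.2 reads of a step. Intervals from reads were not formed. On simulated data with 200 changed genes of 16383, a change of 1 on the log2 scale was found for 65% between tissues in vehicle, 72.5% under MDL-800, 84.5% for treatment in NP, 62.5% in AF and 55% for the interaction. Between 6 and 15 unchanged genes were called in these runs. The changed genes were picked at random and noise was drawn separately for each gene. The rates need not hold for members, or for fits that call few or no genes, such as treatment in AF. Positions and gene types came from GENCODE M21 on GRCm38, which holds all 54 members, 53 as protein-coding. One member is counted in the totals and in the tests over all members, but its own values are not reported here, and it is left out of the figures and of the counts over the members shown. No pair of libraries held identical values (0 pairs). The members and lists were chosen with earlier results of these data known. By rule, members with a mean of 1 or more in any group were named, with values by library for at most the 10 largest changes each way among those called, or the 3 smallest p each way where fewer than 3 were called, and at most 3 genes of each other list. Alternatives were other pseudocounts, filters, scalings and variance models, and leaving out each library.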

Additional observations from a re-analysis of the deposited data

Results flagged for a closer look

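In 11 of 98 groups of 5 libraries looked at, 1 library lay far from the other 4 (gap over range above 0.71). About 5% of groups would pass by chance if values were normally distributed. The values used were scaled FPKM without a log, over members that share libraries, so the count cannot be set against that 5%. Of these, 7 are in AF vehicle library 12, each as the highest value in scaled FPKM: Ccl8 at 135, Ccl5 at 102.5, Cxcl9 at 40.1, Cxcl10 at 35.3, Ccl12 at 21.8, Ccl4 at 13.5 and Cxcr6 at 4.89. Another 3 are in NP MDL-800 library 18, also the highest of its group, with Cxcl12 at 46.7, Ackr3 at 26.4 and Cxcl14 at 10.1. The last is Ackr3 in NP vehicle library 1, the lowest of its group at 6.32.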

How the results depend on the processing

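Across the alternatives run, between 36 and 37 members were lower in NP in vehicle tissue when any 1 library was left out, and 37 under MDL-800. The count of members higher in NP under MDL-800 went from 0 to 1 without a filter, to 1 with a filter of 0.1 FPKM in 5 libraries (Ccr10 in each) and to 1 with quantile normalization (Ccl25). Quantile normalization turned the sign of Ccl25, to 0.31 in vehicle and 0.35 under MDL-800, and moved the split over all genes from 3577 higher and 5550 lower to 6309 and 4197 in vehicle, and from 4188 and 6102 to 6805 and 4544 under MDL-800; the cause was not tested. Cxcl10 also lost its call without a filter in vehicle (-1.998, adjusted p = 0.071) and with all 4 groups in the fit under MDL-800 (-1.20, adjusted p = 0.068), in each case with the same difference as before and a larger p. No member was called with treatment, or for the interaction, under any alternative run. With quantile normalization in vehicle tissue, 7 of 8 macrophage and 5 of 6 T and NK cell markers were lower in NP, and Fmod was called higher. The difference of Ccl12 in NP with MDL-800 was 0.0 without library 15. The deposited column names carry a number that all vehicle libraries and some MDL-800 libraries share between NP and AF. With it as a replicate block, added after seeing the data, 37 members were lower in vehicle (5 pairs) and 36 under MDL-800 (3 pairs), where Ackr3 was at -1.11 (adjusted p = 0.065). Libraries with the same number correlated between -0.18 and 0.29 in their deviations from the group means. Such correlations between different tissues cannot show whether libraries share a mouse. The labels do not explain the number, and the main fits left it out. Members near 0.1 FPKM rest on few reads, which limits the precision of their levels at this depth.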

Other observations

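Position in the genome was not used in choosing the members. On GRCm38, 34 of the 54 members lie in 9 neighbourhoods of members no more than 500000 bases apart. Of the 12 members shown that were 3-fold or more above the other AF libraries in AF vehicle library 12, 10 lie in 4 of these. Ccl7, Ccl11, Ccl12 and Ccl8 belong to a cluster on chromosome 11 (82035571 to 82305690) that holds monocyte and eosinophil chemokines. There Ccl2 was 2.49-fold above the median and Ccl1 was below the filter. Ccl5, Ccl3 and Ccl4 belong to the second cluster on chromosome 11 (83525778 to 83664683), in which Ccl6 and Ccl9 stayed at 1.08-fold and 1.57-fold. Cxcl9 and Cxcl10 share chromosome 5 (92321347 to 92365485) with Cxcl11, and Cxcr6 shares a neighbourhood on chromosome 9 with Ccr1, Ccr2, Ccr3 and Ccr9, of which Ccr2 was at 1.47-fold, Ccr1 at 1.33-fold, Ccr3 at 1.12-fold and Ccr9 at 0.812-fold. In the other chemokine cluster of chromosome 5 (90759360 to 90905938), which holds the neutrophil chemokines, Cxcl1 and Cxcl2 were below the median. Cluster neighbours were therefore high in part only.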
